A study of Mus musculus with 2 samples.

Results

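The genes described here encode 7 membrane proteins that set the sodium, calcium and chloride gradients of dorsal root ganglion (DRG) neurons. They were Atp1b1, Atp1b2 and Atp1b3, the beta subunits of the sodium pump, Atp2b1 and Atp2b2, calcium pumps of the plasma membrane, and the chloride cotransporter genes Slc12a2 and Slc12a5. The list was drawn up with earlier results of these data known, its members were matched by exact gene symbol, and they were 7 of 24411 genes and 8 of 35034 RefSeq transcript rows. DRGs of the thoracic and lumbar regions came from male C57BL/6J mice, 6 to 8 weeks old by the methods of the study (C57BL/6 in the labels). Mice were injected intraperitoneally on days 0 and 14 with alum, an aluminium salt adjuvant, alone (alum pool) or with keyhole limpet hemocyanin (KLH), a mollusc protein used as antigen (KLH pool), and DRGs were taken on day 28. Neurons were enriched by digestion and a BSA cushion, B lymphocytes were removed with beads, and RNA of 10 mice per group was pooled into 1 library, so no spread between mice can be estimated and no difference has a replicate check. The label of the control library calls it both naïve and alum alone, and the methods describe sequencing of alum-injected mice.

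The sodium pump moves sodium out of and potassium into the cell at the cost of ATP, and its catalytic alpha subunit needs a beta subunit to fold and to reach the cell surface. Plasma membrane calcium pumps return the cytosol to low calcium after a train of action potentials. Slc12a2 (NKCC1) loads chloride into the cell and Slc12a5 (KCC2) extrudes it. Mature sensory neurons of the DRG are known for high intracellular chloride, so that GABA depolarises them, in contrast to most mature central neurons, which express KCC2.

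Levels of the 7 genes ran from 0.227 to 2773 TPM in the alum pool and from 0.247 to 2851 TPM in the KLH pool, and stood in the same order in both. Values are in TPM, transcript abundance divided by length and scaled to 1000000 per library, so they can be compared between genes. TPM was summed over the transcripts of a gene, and 3 TPM was the detection threshold of the study. Of the 7 genes, 6 were above 3 TPM in both pools, as were 45.5% of all genes, and Slc12a5 was below it in both. The order from high to low was Atp1b1, Atp1b3, Atp2b1, Slc12a2, Atp2b2, Atp1b2 and Slc12a5. The closest neighbours in this order were Atp2b1 and Slc12a2, which differed 1.5-fold in the alum pool and 1.56-fold in the KLH pool.

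**Figure D1:**
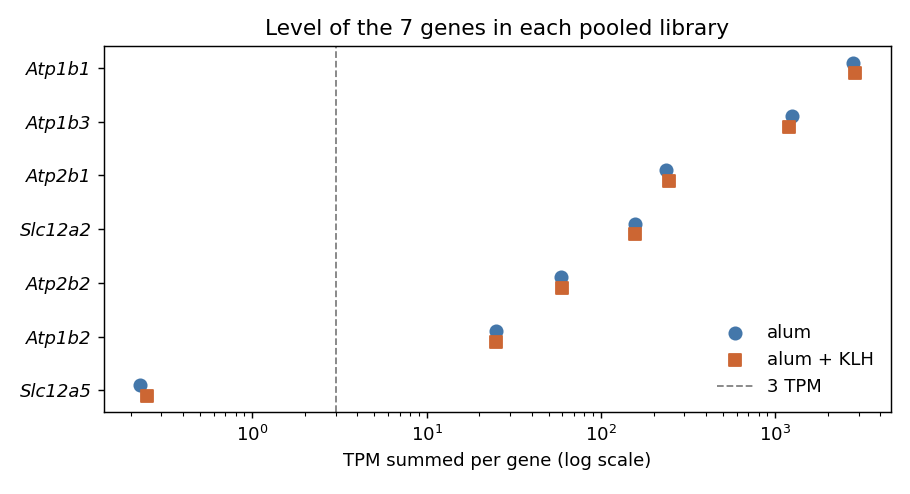
TPM summed per gene (log axis) for the 7 genes in the alum pool (circles) and the KLH pool (squares), 1 library each, with the detection threshold of 3 TPM as a dashed line. Each pair of points nearly coincides, from Atp1b1 at 2773 and 2851 TPM down to Slc12a5 at 0.227 and 0.247 TPM.

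Between the pools, none of the 6 genes above 3 TPM was 1.5-fold apart, whereas 2.56% of the 11648 genes above 3 TPM in at least 1 pool were. At a 2-fold limit the background was 1.64%, so a count of 0 among 6 is near the background and no result about these genes. Differences were expressed as log2 ratios, KLH pool over alum pool, after 1 TPM had been added to every value, which understates changes of low genes. The 7 log2 ratios ran from -0.05 to 0.06. Their median over the 6 genes above 3 TPM was 0.015, beside -0.020 for all genes above 3 TPM. For scale, the SD of the log2 ratio over the 500 genes closest in level was between 0.12 and 0.20. Each of the 7 ratios was smaller than its SD. The share of all genes within such an SD was not computed, so this count is no result about these genes. Of the 11648 genes, 66.1% differed by at least as much as Atp2b1, the widest of the 7 ratios. For Atp1b2, the narrowest, it was 98.5%. A log2 ratio within 0.1 of 0 was also found for 54.6% of all genes above 3 TPM. With 1 library per group these comparisons describe the libraries and do not test the immunization.

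**Figure D2:**
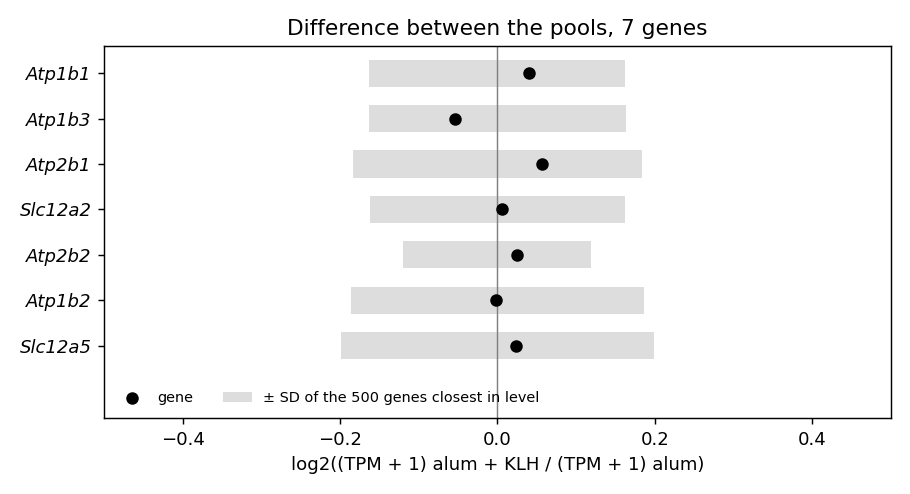
Log2 ratio of alum + KLH over alum (points, pseudocount 1 TPM) for the 7 genes, beside the SD of the same ratio over the 500 genes closest in level (grey bars, drawn around 0). Every point lies within its bar, but the share of all genes that lie within such a bar was not computed. At this pseudocount the widest ratio is 0.06 for Atp2b1.

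Atp1b1, the beta-1 subunit of the sodium pump, was the most abundant of the 7 genes. It was at 2773 TPM in the alum pool and 2851 TPM in the KLH pool, a log2 ratio of 0.04 beside an SD of 0.16 among genes of like level. This placed it at rank 18 and rank 20 of all genes. The single transcript row, NM_009721, lies on chromosome 1 (164437109 to 164458355, minus strand, 6 exons) in the GENCODE M21 annotation of GRCm38. Of its 31-mers, the sequence words kallisto matches reads on by default, 20.2% also occur in Nme7, a gene that overlaps its 3′ end on the opposite strand. Nme7 itself was at 20.9 and 19.4 TPM. The library kit was stranded, but the sources used here do not state whether kallisto was run with strand, so reads of the overlap may have been divided between both genes.

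Atp1b3, the beta-3 subunit, followed at 1249 and 1203 TPM, with a log2 ratio of -0.05 and an SD of 0.16 among its neighbours in level. It was 2.22-fold below Atp1b1 in the alum pool and 2.37-fold below it in the KLH pool. Its row, NM_007502, lies on chromosome 9 (96332655 to 96364442, minus strand, 7 exons). A share of 19.5% of its 31-mers also occurs in annotated transcripts of other genes, mostly in Gm1848, which was not analysed here. Whether the authors quantified against Gm1848 was not checked, so the effect of this overlap on the Atp1b3 value is unknown.

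Atp1b2, the beta-2 subunit, which was first described as an adhesion molecule on glia, was far lower. It was at 24.9 TPM in the alum pool and 24.8 TPM in the KLH pool, a log2 ratio of -0.00231. Its row, NM_013415, lies on chromosome 11 (69599736 to 69605829, minus strand, 7 exons) and shares 0% of its 31-mers with other genes. Within the summed beta subunit TPM, Atp1b1 took 68.5% and 69.9%, Atp1b3 30.9% and 29.5%, and Atp1b2 0.614% and 0.608%. The muscle-type subunit gene Atp1b4 was at 0.0879 and 0.126 TPM.

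Atp2b1, the widely expressed plasma membrane calcium pump, was the third most abundant of the 7 genes at 234.7 TPM in the alum pool and 244.2 TPM in the KLH pool. As deposited and with 1 TPM added, its log2 ratio of 0.06 was the largest in size of the 7. Of the 500 genes closest in level, 57% differed by as much. With 0.1 TPM added, Slc12a5 had the larger ratio, 0.09 beside 0.06 for Atp2b1. The row NM_026482 lies on chromosome 10 (98915152 to 99026143, plus strand, 21 exons), and 3.38% of its 31-mers occur in other genes.

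Atp2b2, a fast calcium pump known from hair cells and cerebellar neurons, was at 58.9 and 60.0 TPM, a log2 ratio of 0.02. It was the single gene of the 7 with more than 1 transcript row. NM_001036684 held 58.6 and 59.7 TPM, or 99.5% of the gene in either pool, and NM_009723 held 0.320 and 0.274 TPM. These shares moved by 0.087 percentage points between the pools, whereas 22.5% of the 3506 genes above 3 TPM with more than 1 row had a share that moved by at least 10 points. Both models share 18 exons and have the same coding length of 3594 bases. They start 150487 bases apart on the minus strand of chromosome 6, at 113891539 for NM_001036684 and at 114042026 for NM_009723. They also end differently, since the last exon of NM_009723 measures 5018 bases and that of NM_001036684 3180 bases. The sequence that tells the rows apart is thus noncoding. All 287 of the 31-mers held by NM_001036684 alone start in its first exon. Of the 2097 held by NM_009723 alone, 259 start in its first exons and 1838 in its longer last exon. How the reads fell on these stretches cannot be read from TPM.

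RefSeq places 3 starts in Atp2b2. The 250 bases before 2 of them are given, those at or nearest the starts of the 2 rows. Which start was used cannot be read from the shares of the rows. Of the 2097 31-mers held by NM_009723 alone, 1838 start in its last exon and not near its start. The sequences are from RefSeq (GRCm38.p6), and capitals mark motif letters found on either strand. A TATA box was searched as TATAAA and the CCAAT box by the letters in its name. For the GC box the search used GGGCGG, and for the palindromic E-box it used CACGTG. No printed match of one motif overlapped another. The first window, chr6:113891540-113891789 on the minus strand, precedes the start of NM_001036684, and the second, chr6:114042081-114042330 on the minus strand, lies at the upstream start, which RefSeq places at 114042080.
Atp2b2 downstream start: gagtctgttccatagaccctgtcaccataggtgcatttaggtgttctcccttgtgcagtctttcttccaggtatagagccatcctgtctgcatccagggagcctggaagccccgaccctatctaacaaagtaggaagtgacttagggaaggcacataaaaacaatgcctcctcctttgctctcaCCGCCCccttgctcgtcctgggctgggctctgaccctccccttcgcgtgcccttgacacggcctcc
Atp2b2 upstream start: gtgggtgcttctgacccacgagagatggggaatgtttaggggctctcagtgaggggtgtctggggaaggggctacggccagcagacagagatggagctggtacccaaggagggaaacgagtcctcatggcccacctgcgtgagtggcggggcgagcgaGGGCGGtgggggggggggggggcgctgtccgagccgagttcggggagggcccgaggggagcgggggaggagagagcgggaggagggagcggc
The downstream window held 55.6% G and C, and the upstream window 69.6%. Each held 1 GC box and no match to the other motifs. The window of the remaining start, chr6:113934682-113934931 on the minus strand, is not printed because neither row begins there, and it held 52% G and C and no match to the motifs. A GC box was found in 32.7% of all 32851 windows of this length, whose median was 52.4% G and C.

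Slc12a2, which encodes NKCC1, was at 156.2 TPM in the alum pool and 156.8 TPM in the KLH pool. The log2 ratio was 0.00562, and 95.2% of the 500 genes closest in level differed by at least as much. Its single row, NM_009194 on chromosome 18, has 27 exons and shares 0% of its 31-mers with other genes. At these levels, 5.78% of all genes were higher in either pool.

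Slc12a5, which encodes KCC2, was at 0.227 TPM in the alum pool and 0.247 TPM in the KLH pool. It was the lowest of the 7 genes and the single one below the threshold, and 66.7% and 65.9% of all genes were higher. How many reads these values rest on is unknown, and they place the gene below 3 TPM and do not show that it is absent. Slc12a2 exceeded Slc12a5 689-fold in the alum pool and 635-fold in the KLH pool, ratios that rest on the low value of Slc12a5. Its row, NM_020333, lies on chromosome 2 (164967983 to 164999731, plus strand, 26 exons), and 0.233% of its 31-mers occur in other genes. Of 7 markers of central neurons, 6 were below 1.5 TPM in both pools, with Slc32a1 listed at 0, and their sum was 2.52 and 2.12 TPM. The exception was Slc17a7, a vesicular glutamate transporter, at 23.2 and 26.0 TPM. The part of central neurons in the value of Slc12a5 was not tested.

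The 250 bases before the start of the highest and of the lowest gene of the 7 are given for comparison, with capitals as above. The window of Atp1b1 is chr1:164458356-164458605 on the minus strand, and that of Slc12a5 is chr2:164967738-164967987 on the plus strand, before the annotated start closest to that of NM_020333.
Atp1b1: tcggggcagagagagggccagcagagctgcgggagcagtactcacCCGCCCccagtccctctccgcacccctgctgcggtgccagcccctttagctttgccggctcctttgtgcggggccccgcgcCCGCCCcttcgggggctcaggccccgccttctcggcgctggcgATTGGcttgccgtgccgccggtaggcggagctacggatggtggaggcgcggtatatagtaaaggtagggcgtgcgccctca
Slc12a5: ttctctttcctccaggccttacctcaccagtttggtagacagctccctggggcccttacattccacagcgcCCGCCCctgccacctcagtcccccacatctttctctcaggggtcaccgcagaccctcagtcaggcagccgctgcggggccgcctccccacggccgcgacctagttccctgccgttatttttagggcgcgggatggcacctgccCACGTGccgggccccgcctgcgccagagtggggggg
The Atp1b1 window held 1 CCAAT box and 2 GC boxes with 70.4% G and C. The Slc12a5 window held 1 GC box and 1 E-box with 67.2% G and C. A CCAAT box was present in 33.8% of all windows, an E-box in 6.02% and a TATA box in 12.4%. These matches describe letters in the windows only. Atp1b2 and Slc12a2 had no window in the table used.

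The partners of the 7 genes were read from fixed lists of 37 further genes, of which 22 were above 3 TPM in at least 1 pool. None of the 22 was 1.5-fold apart between the pools (background 2.56%), and their log2 ratios ran from -0.43 to 0.22 with a median of -0.04.

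The other sodium pump genes read were mainly those of the FXYD family, small membrane proteins that modulate the pump. Fxyd2, the gamma subunit, was at 401.1 TPM in the alum pool and 297.7 TPM in the KLH pool, a log2 ratio of -0.43 beside an SD of 0.13 among genes of like level. Fxyd6 was at 14.1 and 10.5 TPM, a log2 ratio of -0.39 beside an SD of 0.23. Fxyd7, a neuronal member of the family, was at 55.5 and 53.9 TPM. Fxyd1 (phospholemman), Fxyd3 and Fxyd5 lay close to the threshold, at 4.05 and 4.04 TPM, 3.11 and 2.83 TPM, and 3.13 and 2.75 TPM. Of the 9 genes in this list, these 6 were above 3 TPM in at least 1 pool. Their median log2 ratio was -0.12, beside -0.020 for all genes above 3 TPM. All 6 ratios were negative, as were 56.4% of those of all genes above 3 TPM. Fxyd3 and Fxyd5 passed the threshold in the alum pool only, which fixes their sign. The count of negative ratios and the median are therefore no result about this list. Below 3 TPM in both pools, Fxyd4 and Atp1b4 had positive log2 ratios of 0.13 and 0.05, and Atp1a4 had one of -0.03. With the pools brought to a common median, 5 of the 6 genes above 3 TPM were negative and 1, Fxyd1, was positive. As fewer cells of a type and less RNA per cell cannot be told apart in pooled RNA, these are differences between the libraries. The beta subunits summed to 4047 and 4079 TPM.

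**Figure D3:**
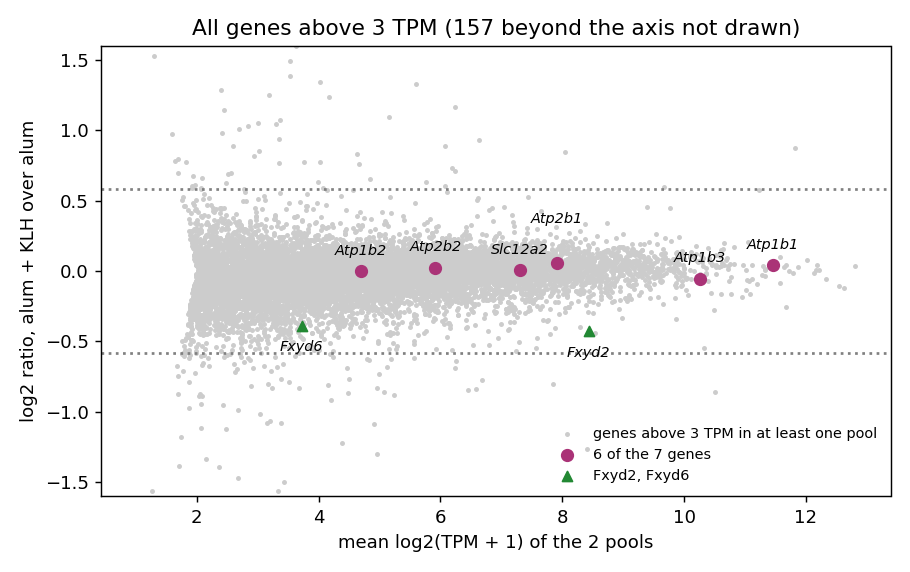
Log2 ratio of alum + KLH over alum against mean log2(TPM + 1) for 11648 genes above 3 TPM in at least 1 pool (grey), with dotted lines at 1.5-fold and 157 genes outside the drawn range of 1.6. The 6 genes above the threshold (circles) lie near 0, and Fxyd2 and Fxyd6 (triangles), chosen for drawing after their values were seen, lie at -0.43 and -0.39.

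Among calcium pumps, Atp2b1 took 60.4% and 61.6% of the TPM summed over the 4 plasma membrane pump genes, and Atp2b2 took 15.2% and 15.1%. The neuronal Atp2b3 was at 45.8 and 44.7 TPM and Atp2b4 at 49.0 and 47.7 TPM. Neuroplastin (Nptn) and basigin (Bsg), which are known to assemble with these pumps, were at 1106 and 1188 TPM and at 297.3 and 248.7 TPM. Atp2a2, the calcium pump of the endoplasmic reticulum, was at 396.0 and 410.5 TPM, and Atp2c1, the pump of the Golgi, at 205.2 and 202.6 TPM. Of the Atp2a2 value, 99.7% sat on a noncoding row, so its level as a pump gene cannot be ranked here. In both pools Atp2c1 stood between Atp2b1 and Atp2b2. Of 9 genes in this list, 6 were above 3 TPM, 2 with a positive and 4 with a negative log2 ratio.

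Calcium also leaves neurons through sodium-calcium exchangers, and here Slc24a2, a potassium-dependent exchanger, was the highest at 409.4 and 435.0 TPM. The potassium-independent exchangers Slc8a3 and Slc8a1 were at 8.76 and 8.94 TPM and at 5.73 and 5.86 TPM, and Slc8a2 was at 0.473 and 0.392 TPM. Of the 7 exchanger genes, 5 were above 3 TPM in both pools.

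Of the 6 other cation-chloride cotransporters, 1 was above 3 TPM, Slc12a7 (KCC4) at 3.55 TPM in the alum pool and 3.23 TPM in the KLH pool. Slc12a4 (KCC1) was at 1.71 and 1.42 TPM. Genes of the kinase pathway that regulates these cotransporters were present, with Stk39 (SPAK) at 328.9 and 343.7 TPM, Wnk1 at 132.2 and 132.3 TPM and Oxsr1 (OSR1) at 64.1 and 62.1 TPM. Of the 6 kinase genes, 4 were above 3 TPM, and Wnk2 and Wnk4 were not.

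**Figure D4:**
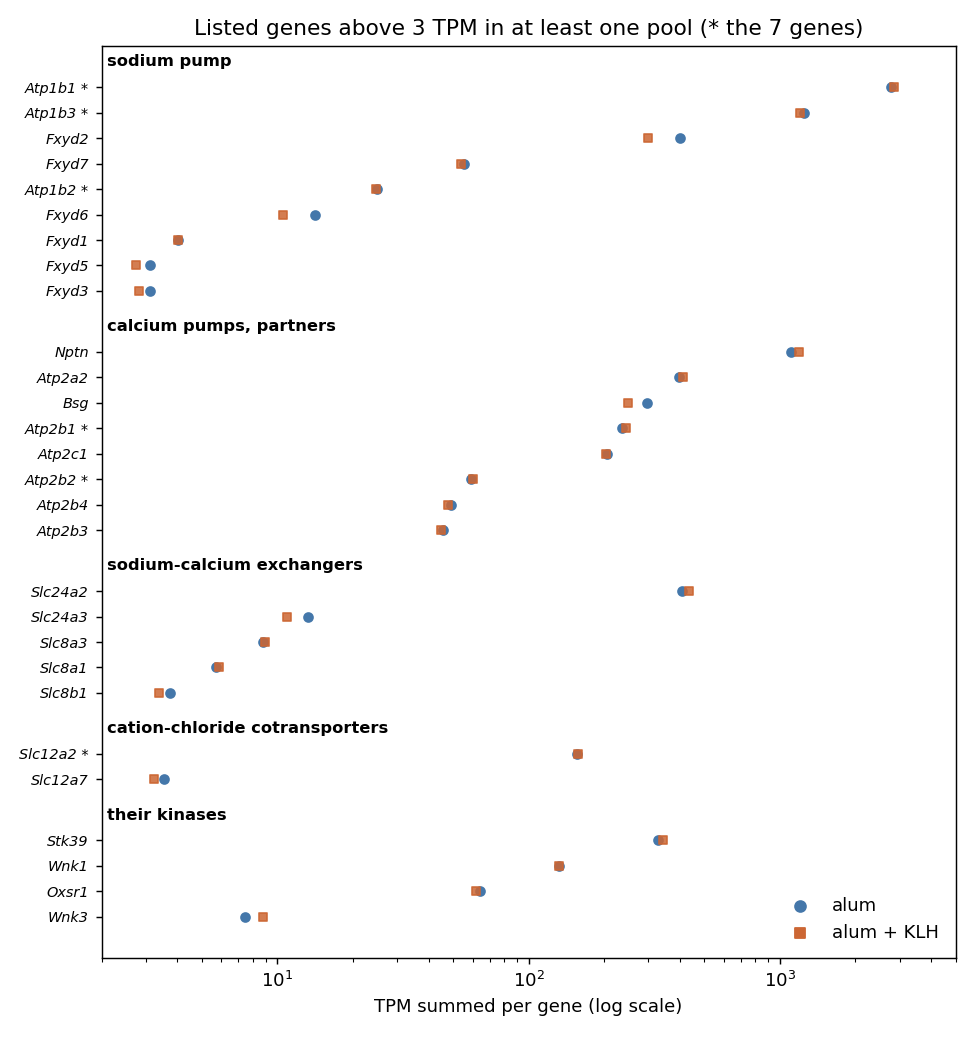
TPM summed per gene (log axis) in the alum pool (circles) and the KLH pool (squares) for the listed genes above 3 TPM in at least 1 pool, grouped by family, with an asterisk on the genes described in full. Atp1b1 and Atp1b3 stand highest among the sodium pump genes drawn, and Slc12a2 stands at 156.2 and 156.8 TPM while Slc12a7 is near 3 TPM.

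The preparations were checked against markers of the cells they could hold. All 8 sensory neuron markers were above 3 TPM in both pools and summed to 13897 and 13683 TPM. Satellite glia markers, of which 5 of 6 passed, summed to 1468 and 1353 TPM, and Schwann cell markers, of which 3 of 6 passed, to 1180 and 1121 TPM. The sums of these glial lists differed between the pools by log2 ratios of -0.12 and -0.07. Oligodendrocyte markers summed to 0.219 and 0.0994 TPM, with Mobp and Opalin listed at 0, macrophage markers to 4.45 and 4.06 TPM, and B lymphocyte markers to 0.697 and 0.186 TPM, with Cd79b listed at 0. Astrocyte markers summed to 24.5 and 24.3 TPM and fibroblast markers to 77.8 and 78.4 TPM. Pericyte and smooth muscle markers, nearly all of them Rgs5, summed to 175.2 and 164.8 TPM, and endothelial markers to 8.94 and 6.28 TPM. Erythroid markers summed to 5.03 and 1.90 TPM, and skeletal muscle markers to 0.320 and 0.0565 TPM. How much of each of the 7 genes came from glia was not tested.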

How the data were processed

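RNA-seq was analysed from 2 libraries, 1 per group, each of pooled RNA from 10 mice. The authors prepared stranded mRNA libraries, demultiplexed paired-end reads with bcl2fastq, trimmed them with cutadapt and quantified them with kallisto on the annotated mouse transcriptome (mm10); tool versions are not given in the sources used here. The deposited tables give TPM for each RefSeq transcript, which the authors scaled to 1000000 per library. The methods state a minimum read depth per sample, but the tables hold no counts, so the reads behind each value are unknown, no interval or detection floor was computed, and the single value per group allows no test.

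TPM was summed per gene symbol and a pseudocount of 1 TPM was added for log2 ratios. Each ratio was set beside the SD over the 500 genes closest in mean log2(TPM + 1). The named genes were the 7 members, their transcripts above 0.1 TPM, and fixed lists of partners and cell markers, a few of which are not reported here. Members and lists were chosen with earlier results of these data known. The choice of promoter windows was made after values were seen. All 8 transcript rows matched GENCODE M21 models (GRCm38, the assembly of mm10), and 31-mers were compared in both orientations with all annotated transcripts. Promoter windows are from RefSeq (GRCm38.p6). Alternatives were pseudocounts of 0.1 and 0.5 TPM, the leading transcript in place of the sum, a common median (ratio 0.985), TPM relative to Hprt, leaving out 1470 rows of microRNAs and small nucleolar RNAs, and other thresholds. The calculations were tested on simulated data. Python 3.11.15, numpy 2.4.6, pandas 2.3.3 and matplotlib 3.10.9 were used.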

Additional observations from a re-analysis of the deposited data

How the results depend on the processing

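The log2 ratios of the 7 genes were recomputed under 6 alternatives each, 42 values in all, and each moved by less than the SD among genes of like level. Most of these outcomes were fixed in advance. Rescaling by the median ratio and by Hprt shifts log2 ratios by about 0.022 and 0.085 or less, below the lowest of these SDs, 0.12. Leaving out microRNA and small nucleolar RNA rows is also a common scaling, and for genes with a single row the leading transcript is the sum. The count of 42 is therefore no evidence that the ratios are stable. The ratios stayed between -0.14 and 0.09. The sign of ratios this close to 0 depended on the scaling: as deposited, 5 of the 7 were positive and 2 negative, after rescaling by the median ratio 6 and 1, and relative to Hprt 1 and 6, with the median of all genes above 3 TPM at -0.020, 0.00083 and -0.10. No direction can therefore be given for these genes. The count of members 1.5-fold apart was 0 under every alternative run, and 6 were above the threshold at 1, 3 and 10 TPM alike. With ratios this close to 0, such scalings could not have made a member 1.5-fold apart, so the count of 0 is no such evidence either. The number of all genes 1.5-fold apart fell from 298 to 125 when restricted to the 8486 genes above 10 TPM in at least 1 pool, and their share from 2.56% to 1.47%. The SD over the 200 closest genes, an alternative chosen after seeing the data, ran from 0.12 to 0.25 for the 7 genes. With no read counts, the precision of low values such as Slc12a5 is unknown. No paired analysis was possible because each group has a single library and no test was made.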

Other observations

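A transcript share moved by at least 10 percentage points between the pools in 4 of the 15 listed partner genes above 3 TPM with more than 1 row. In all such genes the share was 22.5%, so the count is near the background and no result about the partner genes. This measure was chosen after the values were seen. In Atp2c1, NM_001253834 was at 80.4 TPM in the alum pool and 109.6 TPM in the KLH pool and NM_001253831 at 44.99 and 27.6 TPM, with a total of 205.2 and 202.6 TPM. The rows of Fxyd1 changed places altogether, with NM_019503 at 3.13 TPM and listed at 0, and NM_052991 at 0.00022 and 3.40 TPM. The other genes were Fxyd5, whose total also differed (3.13 and 2.75 TPM), and Slc8a1. With 1 library per group, the spread of such shares between replicates is unknown.

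Of the TPM of Atp2a2, 99.7% in either pool sat on NR_027838, a row RefSeq classes as noncoding, while the coding rows NM_009722 and NM_001110140 were at 1.32 and 1.15 TPM and listed at 0. The coding share of this calcium pump gene can therefore not be read from these values.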
